A study of Mus musculus with 12 samples.

Results

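Axon guidance ligands and receptors were followed across the islet cells of the mouse pancreas. They were taken as all gene symbols of the semaphorins (Sema with a digit), plexins (Plxn), neuropilins (Nrp1 and Nrp2), ephrins (Efna and Efnb), Eph receptors (Epha and Ephb), Slits (Slit1 to Slit3), Robo receptors, netrins (Ntn with a digit), Unc5 receptors and Dcc, with antisense names left out. This gave 70 genes, present both in the bulk count table of 45808 genes and in the single-cell gene list of 31055 genes. Unc50, which encodes a Golgi protein, and Unc5cl share the letters of the netrin receptors but are not guidance receptors. They stayed in the counts over all 70 genes and were kept apart from the netrin receptors in the counts by family.

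Bulk RNA-seq compared 5 libraries of γ-cells, which make pancreatic polypeptide (Ppy), with 3 libraries of δ-cells, which make somatostatin (Sst). The γ-cells were the YFP+ cells of Ppy-rtTA;TetO-Cre;R26-YFP mice, in which rtTA replaces the Ppy coding sequence on 1 allele and doxycycline (DOX, 1 mg/ml in the water) switches on an irreversible YFP label in cells that express Ppy. The δ-cells were the YFP+ cells of Sst-Cre;R26-YFP mice, where Cre is driven by Sst, and the labels list the same DOX treatment for every sample. Single-cell RNA-seq covered 4 libraries from islets of DOX-treated mice of the same Ppy-rtTA model, a YFP+ and a YFP- library in each of 2 experiments that pooled the islets of several mice, so that the spread between experiments is the only replicate spread. All mice were 2 months old and of mixed background. Nothing in the labels says that the bulk libraries of a group came from separate animals, so that p-values measure the spread between these libraries, which may be technical.

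The bulk libraries held 14633838 to 31784878 counts for γ-cells and 7641916 to 11773598 for δ-cells. Ppy stood at 95177 to 123905 CPM (counts scaled to a common library size) in γ-cells and 9400 to 15506 CPM in δ-cells, and Sst at 7392 to 12540 CPM and 60259 to 87413 CPM. Both sorted fractions thus carried RNA of the other hormone, and Gcg reached 46784 to 94384 CPM in γ-cells. The γ libraries were read paired-end and the δ libraries single-end on another instrument, so that cell type and sequencing cannot be told apart in bulk. The single-cell libraries held 1300 to 1689 cells and 10683494 to 18330975 UMIs (unique molecules counted), and each shared 7 to 11 cell barcodes with another library.

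Guidance molecules tell migrating axons and cells where to go, and many act at cell contacts outside the nervous system. Semaphorins bind plexins, with neuropilins as co-receptors for the secreted class. Ephrins are held on the membrane and bind Eph receptor tyrosine kinases on the neighbouring cell, Slits are secreted ligands of the Robo receptors, and netrins are laminin-related ligands of Dcc and the Unc5 receptors. In islets, ephrin and Eph contacts between β-cells are known to tune insulin release, Robo receptors are known for keeping islet cell types in their places, and the blood vessels of every tissue use neuropilins, Robo4 and the ephrin-B2 and EphB4 pair.

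Ntn4 and Sema4f on the γ side and Efna5 and Unc5c on the δ side were among the genes called in the same direction in both assays, and their promoters are shown for that reason. Each line holds the 250 bases before the RefSeq transcription start in GRCm38.p6, 5′ to 3′ on the strand of the gene, and capitals mark the GC box GGGCGG on either strand, a motif of many promoters that are active in several tissues. The stretches are chr10:93640799-93641048 on the plus strand (Ntn4), chr17:62881318-62881567 on the minus strand (Efna5), chr6:82939770-82940019 on the minus strand (Sema4f) and chr3:141465314-141465563 on the plus strand (Unc5c).
Ntn4: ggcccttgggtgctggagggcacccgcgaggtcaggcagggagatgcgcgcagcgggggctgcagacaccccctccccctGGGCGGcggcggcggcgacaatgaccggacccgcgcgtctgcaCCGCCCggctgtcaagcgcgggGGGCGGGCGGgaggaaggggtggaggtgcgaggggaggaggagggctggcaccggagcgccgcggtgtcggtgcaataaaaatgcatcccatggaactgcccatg
Efna5: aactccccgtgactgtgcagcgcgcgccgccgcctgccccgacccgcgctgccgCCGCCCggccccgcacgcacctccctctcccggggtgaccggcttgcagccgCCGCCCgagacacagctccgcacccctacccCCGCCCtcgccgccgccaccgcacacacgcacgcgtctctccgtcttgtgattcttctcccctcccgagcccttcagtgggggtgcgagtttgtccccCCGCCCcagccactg
Sema4f: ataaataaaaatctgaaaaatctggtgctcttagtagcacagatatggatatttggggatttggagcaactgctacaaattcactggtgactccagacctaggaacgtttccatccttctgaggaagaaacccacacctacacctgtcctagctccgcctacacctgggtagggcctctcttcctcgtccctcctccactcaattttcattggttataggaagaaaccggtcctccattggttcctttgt
Unc5c: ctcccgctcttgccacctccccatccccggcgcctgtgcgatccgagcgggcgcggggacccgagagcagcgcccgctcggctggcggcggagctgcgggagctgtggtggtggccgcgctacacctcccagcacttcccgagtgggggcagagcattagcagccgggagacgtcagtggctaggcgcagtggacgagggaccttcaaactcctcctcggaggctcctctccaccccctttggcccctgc

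Ntn4 and Efna5, which lay at opposite ends of the comparison between γ- and δ-cells, both carried 4 GC boxes, counting overlapping matches, and were rich in G and C (73.2% and 74.8% of bases). Sema4f (46.0%) and Unc5c (71.2%) carried none in this window. Of the 76 promoters of the 60 guidance genes that matched a RefSeq entry, 71.1% held a GC box on either strand, against 32.7% of all 32851 promoters. The islet-type motifs looked for were less frequent, each was searched on both strands, and none of the motifs contains another. CAGATG, the E-box read by NeuroD1, was in 6.58% of the guidance promoters and 14.4% of all promoters, TAATTA, a homeodomain core, was in 3.95% and 4.84%, and TGTTTAC, a FOXA-type site, was in 0 of 76 and in 3.17% of all promoters. These matches are descriptions of the letters and were not tested as binding sites.

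In bulk, 61 of the 70 genes passed the filter of a mean of 5 counts per library. A gene was called when its adjusted p was at most 0.05 in edgeR's quasi-likelihood test and its log2 fold change at least 1 in size. By this rule 22 of the 61 (36.1%) were higher in γ-cells, against 20.7% of all 17926 genes tested, and 9 (14.8%) were lower, against 14.2%. The other 30 were not called. The values of the 2 cell types did not overlap for 31 genes (50.8%), against 54.2% of all genes, so that separation of the groups was no more frequent among guidance genes. The median log2 fold change of γ over δ was 0.296 for the guidance genes and -0.055 for all genes. Under upper-quartile normalization the median of all genes moved to -0.355, and the split became 17 higher and 9 lower. Dcc, Efna3, Efna4, Epha5, Epha6, Epha10, Ephb1, Ntn5 and Sema7a were too low to test. Dcc, the netrin receptor that mediates attraction, had 0 counts in all 5 γ libraries and 11 over the 3 δ libraries.

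**Figure D1:**
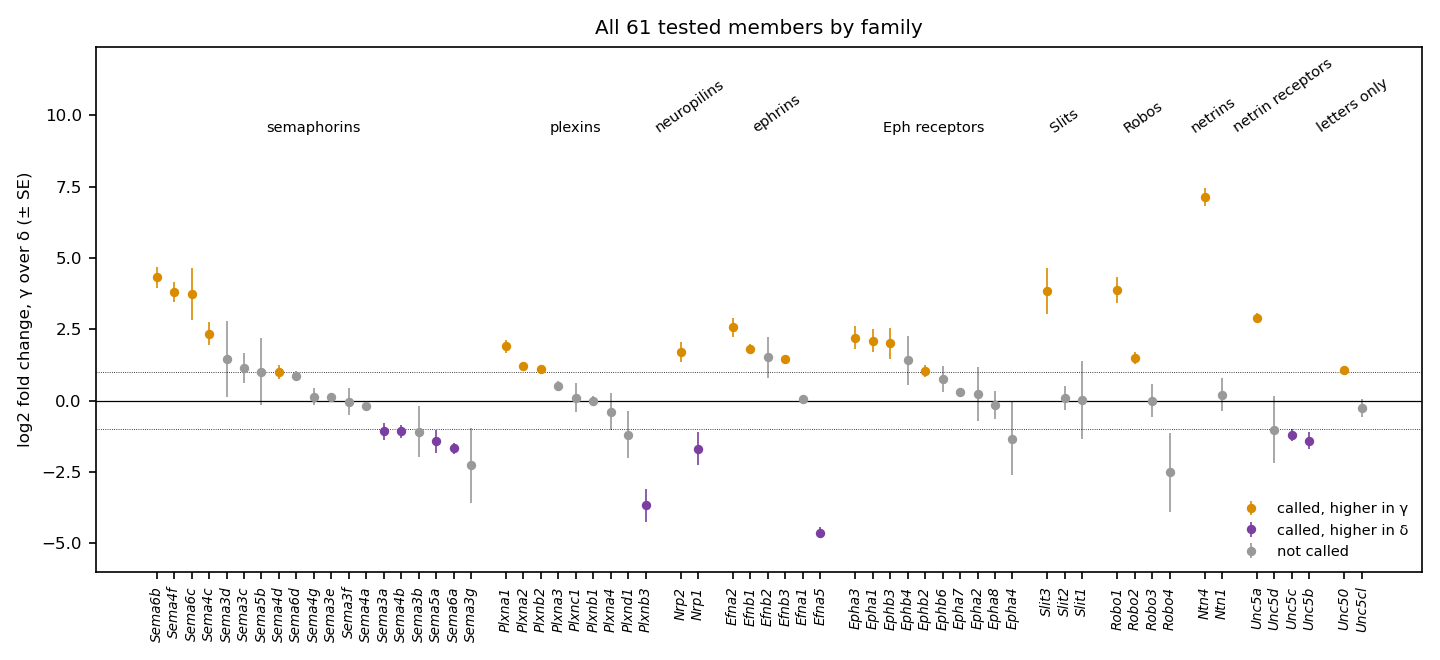
Log2 fold change of γ- over δ-cells (± SE, edgeR) for the 61 tested guidance genes, grouped by family on the horizontal axis. Dotted lines mark the fold threshold of 1, orange and purple points are the 22 and 9 called genes, and Ntn4 (7.13) and Efna5 (-4.62) lie at the ends.

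Among netrins and their receptors, Ntn4 differed the most between γ- and δ-cells. Ntn4 (chromosome 10), a netrin found in basement membranes, read 77.5, 87.9, 85.7, 101.7 and 75.3 CPM in the 5 γ libraries and 1.24, 0.239 and 0.488 CPM in the 3 δ libraries. All γ values were far above all δ values, which rested on 20 counts in total (log2 fold change 7.13 ± 0.32 SE, adjusted p = 5.39e-08). The 6 markers of the Gcg class of islet cells summed to 48600 to 96700 CPM in γ-cells and 1400 to 5980 CPM in δ-cells. In single cells Ntn4 was at 5.11 and 6.31 CPM in the Gcg class and 8.77 and 5.13 CPM in the Ppy class. The part of Gcg RNA in the bulk Ntn4 result was not tested. Unc5a, a receptor that mediates repulsion from netrins, stood at 102.0, 115.6, 87.1, 128.8 and 104.4 CPM in γ-cells and 11.2, 16.5 and 15.0 CPM in δ-cells (2.91 ± 0.18, adjusted p = 3.52e-07). The 7 markers of the Ins2 class of islet cells summed to 10400 to 24400 CPM in γ-cells and 3630 to 5080 CPM in δ-cells, with none at 0 in every library. Among the hormone classes of single cells Unc5a was highest in that class, and it was not called between the Ppy and Sst classes (0.77 ± 0.56), and the part of Ins2 RNA in the bulk result was not tested. Its relatives went the other way. Unc5c read 29.0, 17.3, 15.9, 23.4 and 22.3 CPM in γ-cells and 47.1, 39.3 and 60.9 CPM in δ-cells (-1.19 ± 0.21, adjusted p = 0.000841). Unc5b averaged 5.88 ± 1.89 CPM (SD) in γ-cells and 15.5 ± 3.13 CPM in δ-cells (-1.40 ± 0.30, adjusted p = 0.00258), so that neither receptor overlapped between the groups. Unc5d (-1.01 ± 1.17) and Ntn1 (0.22 ± 0.57) were low and were not called.

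Of the Robo receptors, Robo2 was the most abundant in every library. It read 247.7, 248.2, 207.7, 225.0 and 264.4 CPM in γ-cells and 66.8, 66.3 and 120.2 CPM in δ-cells, with no overlap (1.5 ± 0.20, adjusted p = 0.000137). Robo1 read 12.1, 14.6, 9.02, 21.1 and 9.08 CPM against 1.47, 0.718 and 0.569 CPM (3.87 ± 0.46, adjusted p = 4.68e-05), and it too was highest, among the hormone classes of single cells, in the Ins2 class. Per kilobase of exon, Robo2 averaged 14.0 CPM in γ-cells and 4.97 CPM in δ-cells. In single cells Robo2 was at 129.8 and 96.8 CPM in the Gcg class and 99.6 and 77.8 CPM in the Ppy class. The part of Gcg RNA in the bulk Robo2 result was not tested. Robo3 was not called (0.00 ± 0.58), nor was Robo4 (-2.51 ± 1.39), a receptor of blood vessels, which read 9.83 CPM in δ library 1 and at most 1.40 CPM elsewhere. The ligand Slit3 read 13.9, 6.08, 61.04, 17.7 and 24.2 CPM in γ-cells and 2.94, 1.68 and 0.651 CPM in δ-cells (3.84 ± 0.80, adjusted p = 0.00234). The groups did not overlap, but the γ values ran from 6.08 to 61.04 CPM, and γ library 3, the highest for Slit3, also had the highest sum over the 10 stromal markers, 3490 CPM against 589 to 1260 CPM in the other γ libraries and 8.95 to 795 CPM in δ-cells. None of these markers was at 0 in every library, and their part in the Slit3 result was not tested. Slit1 and Slit2 were not called (0.04 ± 1.36 and 0.09 ± 0.41).

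The semaphorins split, with 5 higher and 4 lower in γ-cells among 19 tested, against 20.7% and 14.2% of all genes. Sema6b and Sema4f, both bound to the membrane, had the largest differences. Sema6b read 15.0, 17.9, 24.2, 21.3 and 21.2 CPM in γ-cells and 1.69, 0.559 and 0.813 CPM in δ-cells (4.33 ± 0.37, adjusted p = 3.89e-06). Sema4f read 60.1, 69.0, 61.7, 52.3 and 28.4 CPM against 2.26, 4.31 and 4.80 CPM (3.82 ± 0.35, adjusted p = 6.86e-06). The lowest γ value of each was several times the highest δ value. In single cells Sema4f was at 14.0 and 10.2 CPM in the Gcg class and 19.7 and 17.1 CPM in the Ppy class. The part of Gcg RNA in its bulk result was not tested. Sema4c, a ligand of plexin B2, averaged 19.0 ± 6.61 CPM (SD) and 3.70 ± 1.83 CPM (2.34 ± 0.40, adjusted p = 0.000686, with 7.27% of its exon bases under a transcript of the opposite strand), and the immune semaphorin Sema4d was called at the threshold (1.01 ± 0.24). Sema6c was called at under 2 CPM.

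On the δ side, Sema6a, a membrane semaphorin that binds A-type plexins, averaged 38.4 ± 4.26 CPM (SD) against 12.1 ± 2.80 CPM in γ-cells (-1.67 ± 0.20, adjusted p = 4.56e-05). Sema4b read 34.1, 33.4 and 47.5 CPM in δ-cells and 22.6, 22.3, 16.6, 10.2 and 19.2 CPM in γ-cells (-1.08 ± 0.24, adjusted p = 0.00383). Sema5a read 19.1, 7.42 and 6.02 CPM in δ-cells and 3.14, 4.57, 4.48, 2.41 and 5.51 CPM in γ-cells (-1.43 ± 0.42, adjusted p = 0.0147). Sema5a thus rested on 1 library, and without δ library 1 the log2 fold change was -0.73 with an adjusted p of 0.145. Sema3a was called at lower levels (-1.07 ± 0.31). The 12 ductal markers summed to 2510 to 3990 CPM in δ-cells and 1670 to 2000 CPM in γ-cells, highest in δ library 1, and the 12 acinar markers summed to 22000 to 93500 CPM and 2470 to 14800 CPM. No marker of either list was at 0 in every library, and their part in the semaphorin results was not tested. In bulk, fewer cells of a type and less RNA per cell cannot be told apart. Sema3e (0.12 ± 0.16), Sema4a (-0.17 ± 0.12) and Sema4g (0.14 ± 0.30) were not called.

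Of the 9 plexins, the main receptors of semaphorins, 3 were higher in γ-cells, 1 was lower and 5 were not called. Among all genes, 20.7% were higher and 14.2% lower. Plxnb2, the most abundant guidance gene in γ-cells per kilobase of exon (61 CPM, and 28.2 CPM in δ-cells), read 486.5, 531.9, 454.3, 465.5 and 417.2 CPM against 186.0, 196.9 and 271.2 CPM (1.11 ± 0.15, adjusted p = 0.000132). Plxna1 averaged 39.4 ± 8.37 CPM (SD) against 10.5 ± 2.67 CPM (1.91 ± 0.22, adjusted p = 4.60e-05), with 10.7% of its exon bases overlapped by genes on the opposite strand. Plxna2 averaged 89.96 ± 11.0 CPM against 38.4 ± 4.16 CPM (1.23 ± 0.13, adjusted p = 1.90e-05), and fell below the fold threshold under upper-quartile normalization (0.93). Plxnb3 went the other way at 0.775 and 9.75 CPM (-3.67 ± 0.57, adjusted p = 0.000344), while Plxnb1 differed by less than its error (-0.02 ± 0.18).

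The co-receptor Nrp2 read 27.1, 30.0, 31.2, 41.3 and 36.3 CPM in γ-cells and 15.0, 3.83 and 11.9 CPM in δ-cells, without overlap (1.71 ± 0.36, adjusted p = 0.00263). Its relative Nrp1 was called lower in γ-cells (-1.68 ± 0.58, adjusted p = 0.0323), but the groups overlapped. Nrp1 was highest in δ library 1 (50.9 CPM), the library with the highest sum over the 12 endothelial markers, 278 CPM against 43.9 to 90.2 CPM in γ-cells and 45.5 and 56.3 CPM in the other δ libraries. That library was also the highest δ library for every other non-endocrine marker list. Among single cells, described below, Nrp1 was high in endothelial-like, stromal-like and macrophage-like cells. The part of any of these cells in the bulk result was not tested.

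Among the ephrins, Efna5 marked the δ-cells. Efna5, a GPI-anchored ligand of EphA receptors, read 154.0, 193.9 and 296.0 CPM in δ-cells and 7.15, 9.96, 8.63, 8.88 and 9.01 CPM in γ-cells, a gap of more than 10-fold between the nearest values (-4.62 ± 0.20, adjusted p = 4.62e-08). Per kilobase of exon it was at 53.2 CPM in δ-cells and 2.16 CPM in γ-cells. Its relatives did not share this pattern. Efna2 averaged 12.6 ± 2.77 CPM (SD) in γ-cells and 2.12 ± 0.829 CPM in δ-cells (2.58 ± 0.33, adjusted p = 8.63e-05), and Efna1 was at 16.7 and 16.2 CPM per kilobase and was not called (0.05 ± 0.14). Of the transmembrane ephrins, Efnb3 read 108.3, 125.9, 124.2, 103.7 and 117.3 CPM in γ-cells and 33.9, 49.4 and 43.4 CPM in δ-cells (1.45 ± 0.14, adjusted p = 8.93e-06). Efnb1 averaged 62.2 ± 7.91 CPM against 17.8 ± 4.16 CPM (1.80 ± 0.17, adjusted p = 8.78e-06).

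Of 10 Eph receptors tested, 4 were higher in γ-cells and 0 lower, against 20.7% and 14.2% of all genes. These are too few genes to give the family a direction. Epha1 averaged 11.9 ± 3.17 CPM (SD) in γ-cells and 2.72 ± 1.80 CPM in δ-cells (2.11 ± 0.42, adjusted p = 0.00168), and 6.01% of its exon bases lie over Zyx on the opposite strand, which these unstranded libraries cannot separate. Ephb2 averaged 28.0 ± 6.19 CPM and 13.6 ± 2.19 CPM (1.04 ± 0.22, adjusted p = 0.00226). Epha3 and Ephb3 were called at lower levels (2.22 ± 0.42 and 2.01 ± 0.55). Epha7, the Eph receptor with the highest CPM in both cell types, averaged 45.7 ± 4.50 CPM and 37.2 ± 4.55 CPM and was not called (0.30 ± 0.12, adjusted p = 0.0689).

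**Figure D2:**
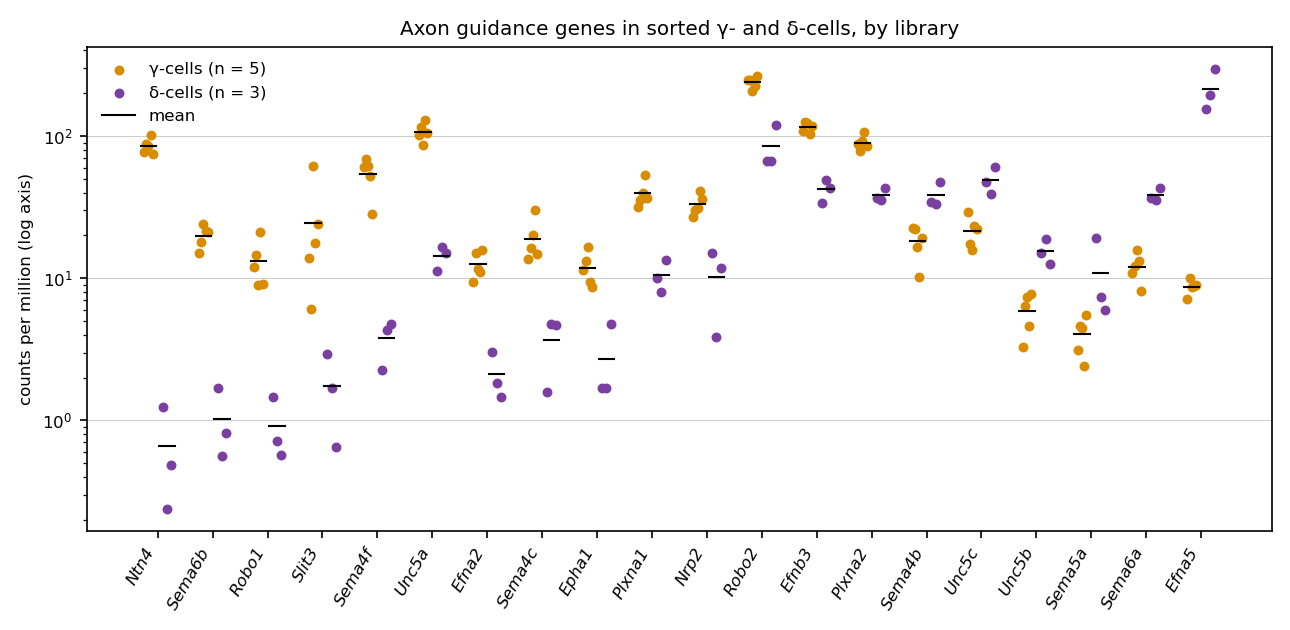
CPM (log axis) of 20 guidance genes in the 5 γ-cell (orange) and 3 δ-cell (purple) libraries, 1 point per library with the group mean as a bar, ordered from the largest increase to the largest decrease in γ-cells. Ntn4 in δ-cells stays at or below 1.24 CPM while every γ library is above 75 CPM, and Efna5 shows the opposite order.

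Other genes of the pathway, co-receptors, adhesion partners and cytoplasmic effectors from a list of 46, moved in both directions. Of 44 tested, 15 were higher and 11 lower in γ-cells, against 20.7% and 14.2% of all genes. Their median log2 fold change was 0.142. The largest changes were higher levels of Nell1 (3.82 ± 0.36), a secreted relative of the Robo3 ligand Nell2, and Chl1 (2.67 ± 0.81), an adhesion molecule of the L1 family that works with neuropilins. In single cells Nell1 stood at 63.9 and 45.8 CPM in the Ins2 class and 22.1 and 17.2 CPM in the Gcg class, but at 1.79 and 3.63 CPM in the Ppy class. The bulk γ libraries carried more of the Ins2 markers, as given above, and more of the 6 Gcg-class markers, 48600 to 96700 CPM against 1400 to 5980 CPM, and the part of this RNA was not tested. Lower in γ-cells were the collapsin response mediators Dpysl4 (-3.17 ± 0.72) and Dpysl2 (-2.99 ± 0.15), which carry semaphorin signals to the cytoskeleton, Flrt1 (-3.05 ± 0.16), of a family of membrane ligands of Unc5 receptors, and the Rac activator Tiam1 (-2.66 ± 0.26). Dpysl4 read 12.8, 4.95 and 1.55 CPM in δ libraries 1 to 3, in the order of their ductal marker sums. The endothelial, stromal, macrophage, T cell and acinar marker sums fell in the same order. Dpysl4 had 0 UMIs in every hormone class of single cells and 15 and 6 UMIs in ductal-like cells, whose part in the bulk result was not tested. The letter match Unc50 was higher in γ-cells (1.08 ± 0.14) and Unc5cl was not called (-0.25 ± 0.32).

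Single cells were then used to ask which hormone class carried each gene. Cells above the density threshold of a single hormone and lying in a cluster of that hormone formed the monohormonal Gcg, Ins2, Sst and Ppy classes, and Ppy cells that also passed another threshold formed the bihormonal Ppy+Gcg, Ppy+Ins2 and Ppy+Sst classes. The clusters were made without the guidance genes. Counts were summed per class and experiment, the experiment was a block in the fit, and calls needed an adjusted p no higher than 0.05 (edgeR's quasi-likelihood test) and a log2 fold change larger than 0.721 in size, which is 0.5 in natural logs. Over all 7 classes, 29 of the 70 genes passed the filter on low counts, and 3 (Efna3, Epha6 and Ntn5) had no UMI in any of them.

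The Gcg (α), Ins2 (β) and Sst (δ) classes came almost wholly from the YFP- libraries, so that they shared library and sort. The Ins2 and Sst classes differed most in 1 direction. Of 29 genes, 11 (37.9%) were lower in the Ins2 class than in the Sst class, against 7.22% of all 10680 genes tested, and 2 (6.90%) were higher, against 7.93%. Between the Gcg and Ins2 classes, 10 (34.5%) were higher in the Gcg class, against 10.5%, and 6 (20.7%) were lower, against 11.7%. Between the Gcg and Sst classes, 4 (13.8%) were higher in the Gcg class, against 5.45%, and 5 (17.2%) were lower, against 6.34%. These comparisons share classes and are not independent of each other. The 29 genes passed a filter on the same sums, which a gene high in 1 class could pass through that class. The shares thus describe the tested genes and not the family as a whole. With no filter, 14 (Ins2 and Sst), 17 (Gcg and Ins2) and 9 (Gcg and Sst) of 67 guidance genes were called. Of all 18805 genes, 1645, 2558 and 1241 were called in the same order.

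The Sst class was high in Efna5, Unc5c, Efnb3 and Nrp2. Efna5 stood at 51.6 and 49.9 CPM in the Sst class of experiments 1 and 2, against 6.13 and 6.66 CPM in the Gcg class (log2 fold change -2.97 ± 0.31 SE, adjusted p = 1.56e-09) and 5.78 and 6.02 CPM in the Ins2 class (-3.19 ± 0.32, adjusted p = 6.01e-10). Unc5c was at 31.5 and 61.9 CPM in the Sst class, at 6.13 and 11.9 CPM in the Gcg class and at 6.16 and 9.64 CPM in the Ins2 class (-2.34 ± 0.31 and -2.57 ± 0.33). Both genes were higher in each Sst sum than in any Gcg or Ins2 sum. Efnb3 was at 62.9 and 55.0 CPM in the Sst class and at 4.09 and 2.80 CPM in the Gcg class (-4.09 ± 0.34, adjusted p = 6.10e-12). In the Ins2 class Efnb3 had 3 UMIs over both experiments (0.578 and 0 CPM), 120-fold lower than in the Sst class with a counting interval of 39.5 to 592. Nrp2 was at 16.4 and 43.0 CPM in the Sst class and at 2.70 and 3.61 CPM in the Ins2 class (-3.34 ± 0.48, adjusted p = 1.66e-06). It had 3 UMIs in the Gcg class, 53.3-fold lower than in the Sst class (interval 16.9 to 270). Sema3c, a secreted semaphorin that guides vessels and neural crest cells, was at 15.1 and 8.5999 CPM in the Sst class and 0.341 and 1.05 CPM in the Gcg class (-4.13 ± 0.91, adjusted p = 0.000975), while its 2 Ins2 sums disagreed (1.93 and 15.7 CPM).

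Of these 3 classes the Gcg class was the highest in Robo2, at 129.8 and 96.8 CPM, against 60.3 and 57.8 CPM in the Ins2 class (0.98 ± 0.14, adjusted p = 6.98e-07) and 51.6 and 51.6 CPM in the Sst class (1.14 ± 0.19, adjusted p = 1.59e-05). Robo2 was not called between the Ins2 and Sst classes (0.17 ± 0.21). Sema4f was at 14.0 and 10.2 CPM in the Gcg class and 0.578 and 1.20 CPM in the Ins2 class (4.15 ± 0.52, adjusted p = 4.16e-08), with 2 UMIs in the Sst class (8.32-fold lower, interval 2.22 to 70.0, a call lost by DESeq2 at an adjusted p of 0.0503). Sema6d (1.49 ± 0.29) and Efnb1 (1.09 ± 0.30) were also higher in the Gcg than in the Ins2 class. The Sema4f, Sema6d and Efnb1 differences from the Ins2 class were each seen in both experiments.

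The Ins2 class was the lowest in several ligands. Sema3e, the semaphorin that binds plexin D1, had 0 UMIs in the Ins2 class of both experiments, at least 10.8-fold lower than the 6.13 and 4.56 CPM of the Gcg class and at least 26.3-fold lower than the 15.1 and 10.3 CPM of the Sst class, with the Ins2 class set to the floor of 3 UMIs. Efnb2, a ligand of EphB4, had 0 UMIs as well. Some receptors were higher in the Ins2 class, whereas others described above (Robo2, Nrp2 and Unc5c) were lower in it than in the Gcg or the Sst class. Unc5a was at 12.1 and 13.3 CPM, against 4.43 and 6.31 CPM in the Gcg class (-1.32 ± 0.32, adjusted p = 0.00163) and 5.04 and 3.44 CPM in the Sst class (1.59 ± 0.53, adjusted p = 0.0319), the latter not called without the experiment block (adjusted p = 0.0734) or by DESeq2 (0.152). Plxnb2 was at 37.0 and 31.3 CPM against 19.1 and 22.1 CPM in the Gcg class (-0.84 ± 0.19), and Plxnb1 differed in the same direction (-0.95 ± 0.30), though not without the experiment block (adjusted p = 0.196) or by DESeq2 (0.0880).

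**Figure D3:**
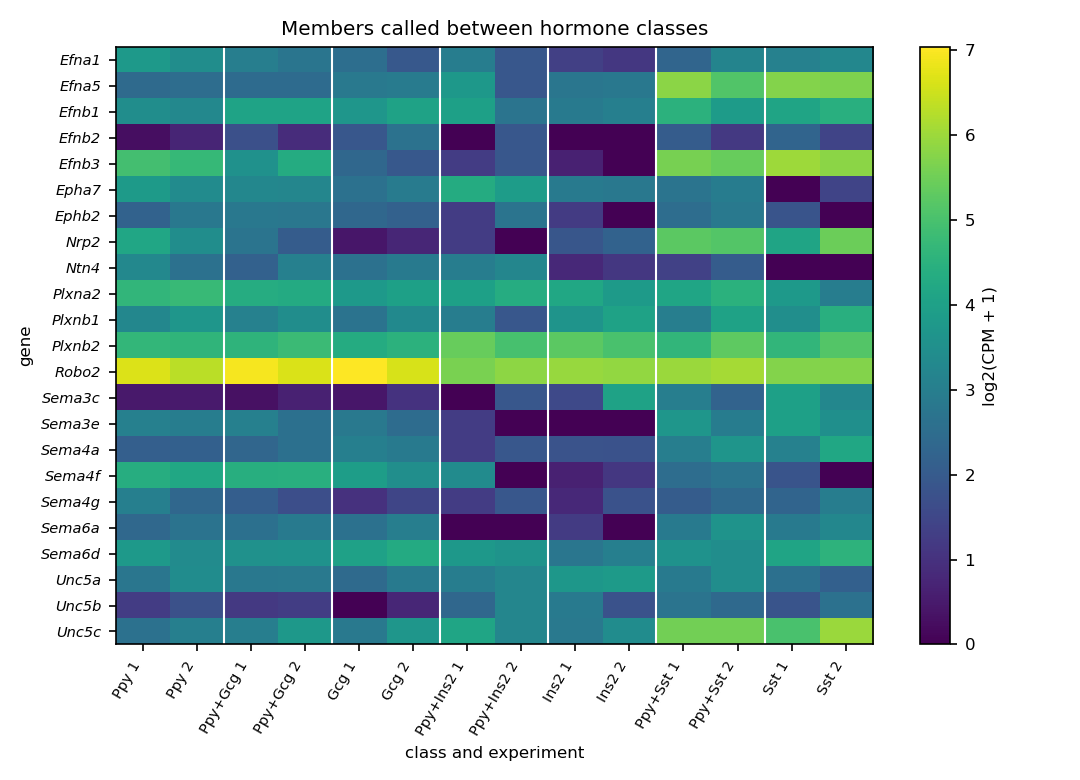
Level of the 23 guidance genes called between any pair of monohormonal classes, as log2(CPM + 1) by colour, with genes in rows and the 7 hormone classes of experiments 1 and 2 in columns. The Sst and Ppy+Sst columns share high Efna5, Efnb3, Nrp2 and Unc5c, and Sema4f is high in the Ppy, Ppy+Gcg and Gcg columns.

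The Ppy class came from the YFP+ libraries, all but 8 of its cells, so that differences between this class and the others cannot be told apart from differences between libraries. Against the Gcg class, 6 of 29 (20.7%) were higher in the Ppy class, against 5.67% of all genes, and 1 (3.45%) was lower, against 6.44%. Against the Ins2 class, 11 (37.9%) were higher, against 12.0%, and 3 (10.3%) were lower, against 13.8%. Against the Sst class, 5 (17.2%) were higher, against 4.99%, and 6 (20.7%) were lower, against 6.31%. The limit of the filter holds here too. With no filter, 9, 16 and 11 of 67 guidance genes were called in these 3 pairs, against 1459, 3099 and 1240 of all 18805 genes. Counts were also summed by library, with library in place of experiment in the model (called here the library block). This fit rests on the bihormonal cells found in both fractions. It called 2, 6 and 3 of 23 guidance genes, against 323, 1359 and 430 of all 9051 genes.

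Nrp2 and Efnb3 separated the Ppy class from the Gcg class. Nrp2 was at 16.9 and 9.83 CPM in the Ppy class, with 3 UMIs in the Gcg class (26.1-fold, counting interval 8.72 to 128). Efnb3 was at 29.3 and 25.0 CPM in the Ppy class (2.96 ± 0.29 over the Gcg class, adjusted p = 3.43e-10). Both were called under the library block too (4.89 and 2.80). Efna1 was at 12.953 and 9.83 CPM in the Ppy class and 4.77 and 2.80 CPM in the Gcg class (1.57 ± 0.34, adjusted p = 0.000543, but 0.268 under the library block). Epha7 was higher in the Ppy class (0.94 ± 0.30, adjusted p = 0.0220), but this call was lost under several alternatives and its sign turned under the library block (-0.60, adjusted p = 0.797).

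Against the Ins2 class, the Ppy class was higher in Sema4f, at 19.7 and 17.1 CPM (4.76 ± 0.45, adjusted p = 7.46e-11). Efnb3 was 54.7-fold higher (interval 18.5 to 267), Sema3e at least 14.3-fold higher, Efna1 higher by 2.98 ± 0.42 and Nrp2 by 2.29 ± 0.40. Ntn4, at 8.77 and 5.13 CPM, exceeded the 0.770 and 1.20 CPM of the Ins2 class (2.96 ± 0.58, adjusted p = 9.97e-05) and was close to the 5.11 and 6.31 CPM of the Gcg class, from which it was not called different (0.30 ± 0.37, adjusted p = 0.639). Unc5a was lower in the Ppy than in the Ins2 class, at 5.78 and 9.61 CPM (-0.81 ± 0.28, adjusted p = 0.0195), a call lost without the experiment block (adjusted p = 0.136).

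The Ppy and Sst classes are the single-cell pair nearest to the bulk comparison, but they are not the same cells. Bulk γ-cells were sorted by YFP alone, so that bihormonal cells were not left out, and bulk δ-cells came from Sst-Cre mice. The pair here held only monohormonal cells of the Ppy-rtTA model. Efna5 was at 4.38 and 4.70 CPM in the Ppy class (-3.46 ± 0.30 against the Sst class, adjusted p = 2.61e-11) and Unc5c at 5.18 and 7.26 CPM (-2.86 ± 0.31, adjusted p = 3.87e-09). Sema3c (-4.80 ± 0.90) and Sema4a (-1.78 ± 0.50), a semaphorin of immune and vascular cells, were lower as well. Higher in the Ppy class were Robo2 (0.79 ± 0.19, adjusted p = 0.00291) and Plxna2 (1.28 ± 0.35, adjusted p = 0.00879). Genes with almost no UMIs in the Sst class were given as ratios or bounds, Sema4f at 12.7-fold (interval 3.46 to 106), Epha7 at 15.6-fold (2.74 to 622) and Ntn4, with 0 UMIs in the Sst class, at least 3.22-fold higher in the Ppy class. Of the genes called in this pair, Efna5 (-2.37), Unc5c (-2.34) and Efnb3 (-1.29) were also called under the library block. DESeq2 did not call Plxna2 (adjusted p = 0.0585) or Epha7 (0.0618).

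Of the 29 genes tested in both assays, 8 were called in both comparisons of γ- with δ-cells, 12 in bulk only, 3 in single cells only and 6 in neither. The direction was the same for 6 of the 8, namely Ntn4, Sema4f, Robo2 and Plxna2 (higher in γ-cells) and Efna5 and Unc5c (lower). Efnb3 and Nrp2 had opposite signs. Efnb3 was 1.45 ± 0.14 in bulk and -1.13 ± 0.23 in single cells (adjusted p = 0.000408), and Nrp2 was 1.71 ± 0.36 and -1.05 ± 0.35 (adjusted p = 0.0402). The Efnb3 difference in single cells was also called under the library block (-1.29), whereas Nrp2 was at 0.03 when experiment 2 was left out and was not called without the experiment block (adjusted p = 0.130). Of the 12 called in bulk only, Efna2 (2.58 in bulk and -0.35 in single cells), Efnb1 (1.80 and -0.95) and Sema4c (2.34 and -1.04) had opposite signs. So did Plxna1 (1.91 and -0.30), Plxnb2 (1.11 and -0.27) and Sema4b (-1.08 and 0.01). Ephb2, Sema4d, Sema6a, Unc50, Unc5a and Unc5b kept their sign. Of the 3 called in single cells only, Sema3c turned sign (-4.80, and 1.14 in bulk), and Epha7 and Sema4a did not. Some genes called higher in bulk γ-cells had few UMIs in the Ppy class. Sema6b had 4 and 3 UMIs (0.797 and 0.641 CPM), Robo1 had 6 and 3 UMIs and was highest in the Ins2 class (9.05 and 7.23 CPM), and Slit3 had 2 and 0 UMIs. On the δ side, Nrp1 and Plxnb3 had 0 UMIs in both the Ppy and the Sst class, and Sema5a had 0 UMIs in the Sst class. Single-cell libraries read the 3′ ends of transcripts and bulk libraries whole transcripts, and the part of this difference was not tested.

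**Figure D4:**
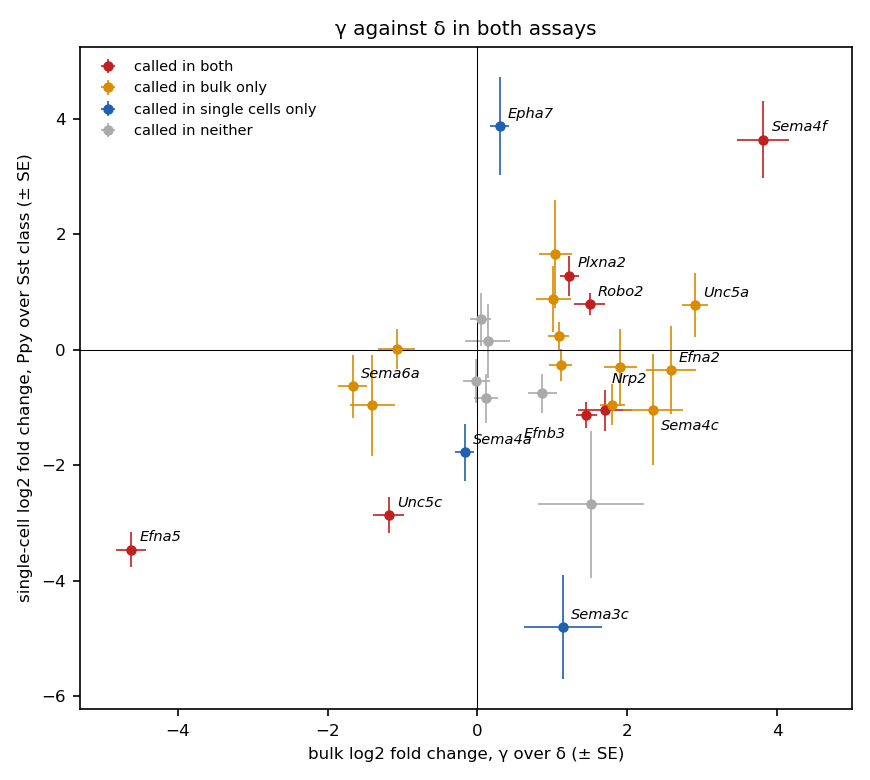
Bulk log2 fold change of γ- over δ-cells (horizontal) against the single-cell log2 fold change of the Ppy over the Sst class (vertical), each ± SE, for the guidance genes tested in both assays other than Ntn4, whose Sst class had 0 UMIs. Red points are called in both. Sema4f lies at the upper right, Efna5 and Unc5c lie at the lower left, and Efnb3 and Nrp2 lie at the lower right with opposite signs.

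Bihormonal cells are described without a test. They were set by the hormone thresholds alone, whereas the paper left out those lying in monohormonal clusters. Ppy+Sst cells numbered 181 and 214 in experiments 1 and 2, of which 80 and 59 came from the YFP- libraries. Cells of the Sst cluster that passed the Ppy threshold were thus not left out. Doublets that escaped removal could not be told apart from bihormonal cells. Ppy+Sst cells carried the leading genes of the Sst class, at 55.2 and 34.0 CPM of Efna5, 45.0 and 45.7 CPM of Unc5c, 47.3 and 41.4 CPM of Efnb3 and 37.1 and 34.6 CPM of Nrp2. The same was seen within the YFP+ libraries alone. There, with each class of a library scaled by its own TMM library size, Efna5 was at 45.5 and 27.4 CPM in Ppy+Sst cells and 4.64 and 5.00 CPM in Ppy cells of the same library, and Unc5c was at 44.2 and 44.3 CPM and 5.49 and 7.73 CPM. In each YFP+ library both genes were thus higher in the cells that also had Sst. Nrp2 was at 40 and 32.2 CPM in Ppy+Sst cells and 17.9 and 10.5 CPM in Ppy cells, and Efnb3 was at 46.9 and 41.1 CPM and 30.8 and 26.4 CPM. Sema4f ran the other way, at 5.52 and 7.25 CPM in Ppy+Sst cells and 20.9 and 18.2 CPM in Ppy cells. Ppy+Gcg cells lay between the Ppy and Gcg classes for Efnb3 (10.8 and 19.1 CPM) and Nrp2 (5.52 and 3.09 CPM), were at the level of the Ppy class for Sema4f (20.1 and 20.5 CPM) and were near the Gcg class for Robo2 (121.7 and 98.993 CPM). Ppy+Ins2 cells, 73 and 39 in number, had 0 to 1.37 CPM of Nrp2 and 1.37 and 2.78 CPM of Efnb3, each from at most 1 UMI.

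The YFP- libraries also held non-endocrine cells, which were grouped by markers in clusters made without the guidance genes. The second clustering, of the non-endocrine cells alone, was decided after the data were seen. Each class was compared with the mean of the Gcg, Ins2 and Sst classes of the same libraries, and 36 guidance genes passed the filter. A gene that passed only because 1 class had it high was bound to differ, so that the counts that follow describe the tested genes and not the family as a whole. CPM values in this comparison were scaled in their own fit. Endothelial-like cells (69 and 165) were small, with a median UMI count 0.307 times that of their library, and haemoglobin genes stood among their leading genes.

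In endothelial-like cells 20 of 36 (55.6%) were higher than in endocrine cells, against 21.8% of all 7823 genes tested, and 5 (13.9%) were lower, against 18.9%. In stromal-like cells the numbers were 20 (55.6%, against 20.4%) and 5 (13.9%, against 14.3%). In ductal-like cells they were 11 (30.6%, against 17.1%) and 5 (13.9%, against 14.2%). Macrophage-like cells had 6 higher (16.7%, against 22.1%) and 7 lower (19.4%, against 19.1%), and B-lineage-like cells had 4 higher (11.1%, against 23.9%) and 9 lower (25.0%, against 24.4%).

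Endothelial-like cells carried receptors of the vessel wall and ligands as well. Of the ligands, 8 of 12 tested semaphorins and 3 of 5 ephrins were called higher, against 21.8% of all genes. Nrp1, the co-receptor of secreted semaphorins and of VEGF, was at 438.0 and 292.8 CPM, against at most 3.24 CPM in any endocrine sum (9.12 ± 0.35, adjusted p = 3.45e-16). Robo4, the endothelial Robo, was at 101.3 and 143.0 CPM with 1 UMI in the pooled endocrine classes, which lay in the Sst class (1250-fold, counting interval 219 to 49900). Ephb4, the venous Eph receptor, was at 62.1 and 98.3 CPM with 1 endocrine UMI (829-fold, 143 to 33200). Both Robo4 and Ephb4 were thus near 0 in the endocrine classes. Its partner Efnb2, the arterial ephrin, was at 124.2 and 98.3 CPM (6.23 ± 0.48). Epha4 was at 81.7 and 89.4 CPM (285-fold, 93.3 to 1420), Sema3g at 81.7 and 131.9 CPM (552-fold, 148 to 4640) and Sema7a, a GPI-anchored semaphorin, at 49.0 and 40.2 CPM (434-fold, 72.7 to 17700). Both neuropilins and Plxnd1, their plexin partner in vessels (85.0 and 78.2 CPM), were high in the same class. DESeq2 did not call Robo4 (adjusted p = 0.117) or Sema3g (0.149), with log2 fold changes of 9.27 and 8.64.

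Stromal-like cells (55 and 120) had secreted ligands among their largest increases. Receptors were higher too, with 3 of 3 tested Eph receptors and 2 of 2 neuropilins called, against 20.4% of all genes. Slit3 was at 146.0 and 117.9 CPM with 0 UMIs in the endocrine classes, at least 426-fold higher, and Slit2 was at 52.7 and 81.2 CPM (347-fold, counting interval 90.5 to 2960). Sema3d was at 56.8 and 36.7 CPM with 0 endocrine UMIs, at least 147-fold higher. Slit3 was also seen in 81 stromal-like UMIs against 1 in endothelial-like cells. Sema3c was the most abundant guidance gene by CPM in this class, at 263.7 and 560.6 CPM (6.35 ± 0.36, adjusted p = 1.82e-13), and Ntn1, the classical netrin, was at 24.3 and 36.7 CPM (158-fold, 38.3 to 1390). Nrp1 was at 73.0 and 78.6 CPM (6.88 ± 0.52). Ntn4 was at 28.4 and 34.1 CPM (4.80 ± 0.87) and Efna5 at 48.7 and 78.6 CPM (1.91 ± 0.36), so that the leading γ gene and the leading δ gene of the bulk comparison were both also present in stroma. DESeq2 did not call Sema3d, Slit3 or Ntn1 in stromal-like cells (adjusted p of 0.107 to 0.303), although its log2 fold changes were 8.23, 9.83 and 6.79.

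**Figure D5:**
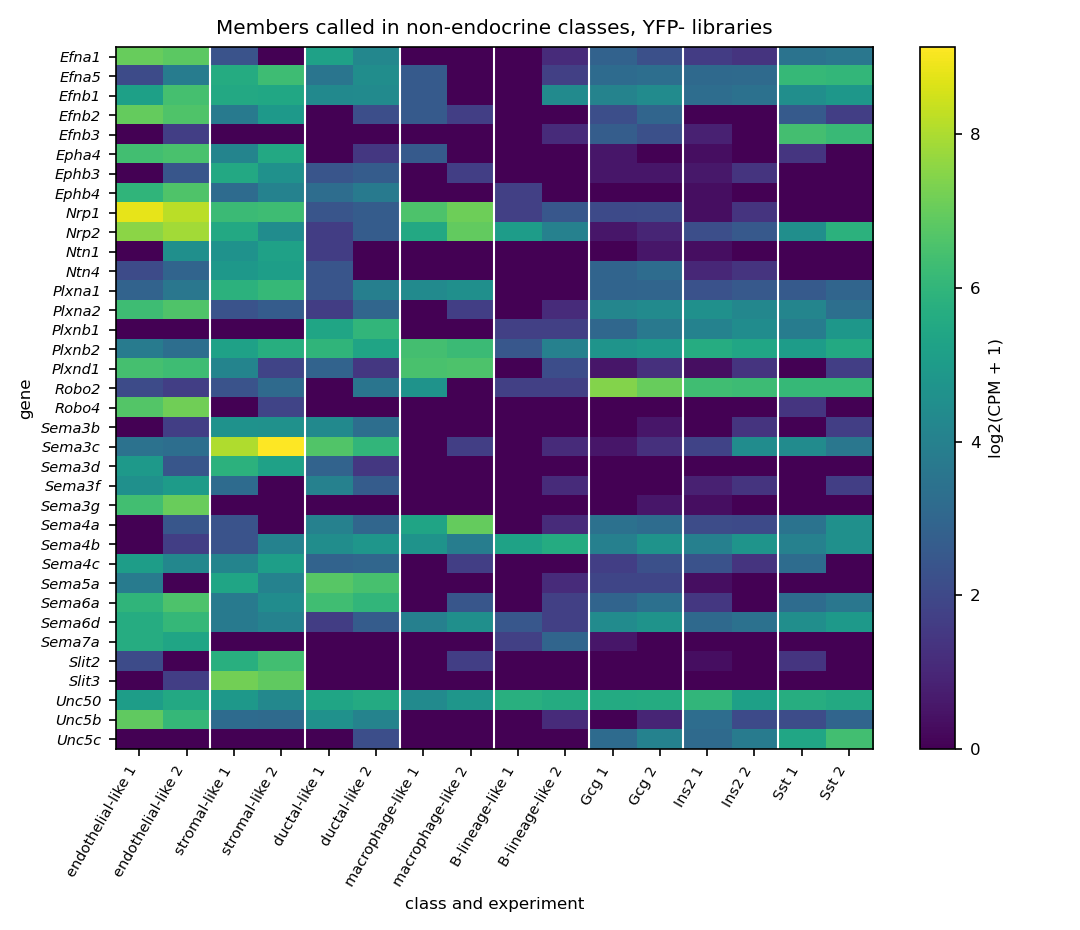
Level of the 36 guidance genes tested in the YFP- libraries, as log2(CPM + 1) by colour, with genes in rows and the non-endocrine and endocrine classes of experiments 1 and 2 in columns. Robo2 and Unc5c are highest in the endocrine columns, Slit2 and Slit3 in the stromal-like columns, and Robo4 and Sema3g in the endothelial-like columns.

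In ductal-like cells (44 and 65), 6 of 12 tested semaphorins were called higher, against 17.1% of all genes. As many or more were called higher in stromal-like (6) and endothelial-like cells (8). Sema5a was at 106.9 and 87.5 CPM (7.64 ± 0.55, adjusted p = 1.75e-10), Sema3c at 100.5 and 64.3 CPM (4.09 ± 0.44) and Sema6a at 79.1 and 64.3 CPM (3.78 ± 0.35). All 3 were several times higher in both ductal-like sums than in any endocrine sum. Sema3b was at 19.2 and 8.93 CPM with 3 endocrine UMIs (45.0-fold, 12.6 to 244), and Sema3f (4.21 ± 1.06) and Ephb4 (106-fold, 15.4 to 4570) were lower in level. Sema5a and Sema6a were also among the semaphorins higher in bulk δ-cells, which had the higher sum of ductal markers, and the part of ductal cells was not tested. In the Sst class Sema5a had 0 UMIs, while Sema6a stood at 6.29 and 8.5999 CPM against 4.18 and 5.34 CPM in the Ppy class (not called, -0.63 ± 0.55).

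Macrophage-like cells (54 and 130) carried receptors rather than ligands. Nrp1 was at 94.2 and 137.4 CPM (7.54 ± 0.46, adjusted p = 1.97e-12), Plxnd1 at 89.3 and 94.6 CPM (6.71 ± 0.54) and Nrp2 at 44.6 and 121.6 CPM (4.11 ± 0.42). Plxna1 (1.85 ± 0.56) and Plxnb2 (1.09 ± 0.30) were also higher, and the only ligand called higher was Sema4a, at 39.7 and 126.1 CPM (3.38 ± 0.43). In B-lineage-like cells (70 and 125) Sema4b was at 37.1 and 47.6 CPM (1.12 ± 0.30) and Nrp2 at 32.4 and 15.1 CPM (2.05 ± 0.51).

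Robo2 and Unc5c were lower than in endocrine cells in all 5 non-endocrine classes. Robo2 had 2 UMIs in endothelial-like cells (41.4-fold lower than in endocrine cells, counting interval 11.4 to 342) and 3 in B-lineage-like cells (47.3-fold lower, 16.2 to 230), against 1088 in the endocrine classes. Unc5c had 0 UMIs in endothelial-like, stromal-like, macrophage-like and B-lineage-like cells, at least 3.21-fold lower. Whether free RNA in the droplets gave the few Robo2 UMIs of B-lineage-like cells was not tested. Efna5 had 2 UMIs there.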

How the data were processed

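Per the deposited count tables, the authors aligned bulk reads with STAR (2.7.2b) and counted them per gene with HTSeq (0.9.1), and they made the single-cell UMI counts with Cell Ranger. Whether counting used strand is not given in the sources used here, and the bulk library kit does not mark strand. The genes and lists were chosen with earlier results of these data known. A further 6 columns among the bulk counts belong to libraries of another series and were not used.

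Bulk genes with a mean of at least 5 counts per library were tested with edgeR (4.0.16, R 4.3.3), TMM normalization, the quasi-likelihood test and Benjamini-Hochberg adjustment over all 17926 genes. Same-numbered bulk libraries did not deviate together and were not paired. For single cells, 5982 cells were read, 120 were removed as doublets by a nearest-neighbour caller set to a rate of 2%, and 5862 were clustered with Seurat (5.3.0) after the guidance genes had been taken out. Raw UMIs were summed per class and experiment and fitted over the 14 endocrine sums, or the 16 sums of YFP- cells. Experiment was a block, since both libraries of an experiment share its mice. Deviations of whole YFP+ and YFP- libraries from the means of their fractions correlated at 0.326 across 12532 genes. With 2 libraries per fraction the deviations mirror each other, so that this is 1 value and not 1 per experiment. CPM are scaled by the TMM library sizes unless called plain.

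A gene with 0 counts on one side was given as a bound against 3 counts over the group, and one with 1 to 3 counts as a ratio with an exact 95% counting interval. Intervals and bounds cover counting error only. Genes were named in bulk when called without overlap and with a mean from 10 CPM up on the higher side (at most 10 in each direction), when called in both assays, for the 4 largest changes in each direction of a single-cell pair and the 6 largest increases of a non-endocrine class (both from 10 CPM), as receptors of a named ligand, and for 6 other pathway genes. Other genes appear with their values after these had been seen. In simulated bulk counts the test called 80% of the 4-fold and 6% of the 2-fold changes. The simulation gave all genes the same spread and changed far fewer genes than differed here. In the real counts 9514 genes reached an adjusted p of at most 0.05 in edgeR's test. The simulated rates are thus not the sensitivity of this comparison. Alternatives were DESeq2 (1.42.0), upper-quartile normalization, other filters, replicate and library blocks, no doublet removal and leaving out each library or experiment. Promoters came from RefSeq, and 60 of the 70 genes matched.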

Additional observations from a re-analysis of the deposited data

Results flagged for a closer look

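Among the genes called in both assays, Efnb3 and Nrp2 had opposite signs. Efnb3 was 1.45 (log2 fold change) higher in γ- than in δ-cells in bulk and -1.13 between the Ppy and Sst classes of single cells. Nrp2 was 1.71 in bulk and -1.05 in single cells. Both differences between assays were not tested. Among 20 guidance genes checked in the 5 γ libraries, none had a library whose gap to its neighbour exceeded 0.71 of the range, where chance would exceed it in about 1 of 20 genes.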

How the results depend on the processing

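In bulk, 31 guidance genes were called, and the alternatives gave 26 (upper-quartile normalization) to 34 (no filter), with 29 to 31 when 1 library was left out. The bulk replicate numbers did not pair the libraries (correlations of -0.0952, 0.0678 and -0.274 for numbers 1 to 3). The replicate block, which uses libraries 1 to 3 of each group, called 28, and the same libraries without a block called 30, an alternative added after seeing the data. Upper-quartile normalization also turned the split of all genes from 3715 higher and 2553 lower to 3055 and 3746. Sema4b fell below the fold threshold under the block (-0.91) and without γ library 4 (-0.93) or δ library 3 (-0.90), and Sema5a was not called under the block (adjusted p = 0.107).

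In single cells, the fit by library gave 2 calls for Ppy against Gcg, 6 for Ppy against Ins2 and 3 for Ppy against Sst, where 23 guidance genes were tested, and there Epha7 in Ppy against Gcg turned to -0.60. The cause was not tested. Without the experiment block the 6 pairs, in the order Ppy against Gcg, Ins2 and Sst, Gcg against Ins2 and Sst, and Ins2 against Sst, gave 6, 11, 10, 13, 9 and 11 calls. Nrp2 in Ppy against Sst was -2.12 without experiment 1 and 0.03 without experiment 2. Over all genes, Ppy against Gcg went from 1294 calls to 767 without the block, 803 by DESeq2, 323 by library and 1993 with no fold threshold, Ppy against Sst from 1207 to 771 without the block or 430 by library, and Ppy against Ins2 from 2756 to 1359 by library. Leaving out an experiment gave fold changes only. Of the named values, 333 of bulk, 391 of single-cell pairs and 203 of non-endocrine classes kept direction and, where tested, the call. In the same order, 7, 24 and 5 kept direction but lost the call, and 2 of single-cell pairs turned sign. Values from leaving out an experiment had no test and were counted as kept by sign alone.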

Other observations

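T cell-like cells (9 and 27 in the YFP- libraries) were too few to test. Sema4d, a semaphorin first known from lymphocytes, was at 76.3 and 47.5 plain CPM in them, from 6 and 11 UMIs.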
